A study of Saccharomyces cerevisiae with 6 samples.

Results

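The genes described here encode 32 subunits of the 26S proteasome of *S. cerevisiae* and Rpn4, the transcription factor that controls them. They were chosen by function, as a list of systematic names. The rule uses no measured value, although it was written when earlier results of these data were known. They make up 33 of the 7445 features in the count table: *RPN4*, 14 subunits of the 20S core, 6 RPT ATPases, 4 further subunits of the 19S base and 8 subunits of the 19S lid. All 33 had counts and passed the expression filter that left 6397 features for testing. RNA freed of rRNA was sequenced from 6 cultures of the W303 strain PDW2798, 3 treated with a mock and 3 with 500 µM auxin for 1 h. The study's methods describe the auxin dose as lowered within that hour. All 6 cultures carry *RIO1-AID::KanMX4*, which tags the kinase Rio1 with an auxin-inducible degron, and *PADH1-OsTIR1-9myc::URA3*, which expresses from the *ADH1* promoter the plant F-box protein that recognises the degron in auxin. They grew in rich medium (YPDA) at 25°C to an OD600 of 0.8. The comparison of auxin with mock addresses what changes in yeast RNA when Rio1 is depleted. No auxin-treated strain without the degron is analysed here, so Rio1 depletion and the addition of auxin cannot be told apart. The degron acts on the protein, and the *RIO1* mRNA is therefore no check of the groups.

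The proteasome is the protease that degrades proteins marked with ubiquitin. Its 20S core is a barrel of outer alpha rings, which gate the entrance, and inner beta rings, which carry the proteolytic sites. The 19S regulatory particle caps the barrel: its lid and its ubiquitin receptors capture and deubiquitinate substrates, and a ring of RPT ATPases in its base unfolds them and opens the gate. Rpn4 binds a short promoter element, the proteasome-associated control element (PACE), in front of most proteasome genes. Rpn4 is itself degraded within minutes by the proteasome, so that the supply of subunits is tied to the demand for degradation.

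PACE is shown first because the subunit genes share it. They were not chosen by it, but the element is itself known from the promoters of proteasome genes, as its name says. Its frequency before the subunit genes is therefore a description and no independent result. Its 9 letters GGTGGCAAA were searched on both strands of the 300 bases before the start codon of each nuclear protein-coding gene in the S288C reference genome (build R64). The reference annotation gives no transcription start sites, so distances are counted from the start codon to the nearest base of the motif. The strain used is W303, and its own sequence was not read. Of 6002 upstream windows, 73 (1.22%) held the motif, and 27 of these 73 (37.0%) lay before 1 of the 32 subunit genes. Seen from the subunits, 27 of 32 (84.4%) had the motif, each exactly once. The following 29-base stretches, with the motif in capitals, show the motif for the subunit with the largest change in each ring or subcomplex that has it (*PRE2*, *PRE10*, *RPT5*, *RPN2* and *RPN12*), for *PRE4*, which had the lowest adjusted p, and for *RPN6* and *RPN7*, which share it with a neighbouring gene. Each is written 5′ to 3′ on the strand that reads GGTGGCAAA. For *PRE2* it lies at chrXVI:732184-732212, for *PRE4* at chrVI:249959-249987, for *PRE10* at chrXV:1018856-1018884, for *RPT5* at chrXV:544855-544883, for *RPN2* at chrIX:220801-220829, for *RPN12* at chrVI:252398-252426, for *RPN7* at chrXVI:742290-742318 and for *RPN6* at chrIV:286790-286818.
PRE2: acagcaaaagGGTGGCAAAacgaagaata
PRE4: acgtatttaaGGTGGCAAAttctaaacca
PRE10: cctctaaatcGGTGGCAAAaataagaaag
RPT5: gccaatatgtGGTGGCAAAaatgaattaa
RPN2: atttattttcGGTGGCAAAactggataca
RPN12: aatttcaatgGGTGGCAAAtaatgtgtag
RPN7: atcctcaatgGGTGGCAAActtaacttat
RPN6: tggttccaagGGTGGCAAAtgttggtaga
The bases next to the motif differ from gene to gene, with only the capitals shared by all 8. The strand of the gene carried it in *PRE2*, *PRE10*, *RPT5*, *RPN2* and *RPN6*, and the opposite strand in *PRE4*, *RPN12* and *RPN7*.

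The 5 remaining subunits have no exact motif in the window, and their closest match differs at 1 base. Positions are counted from 1 at the 5′ end of GGTGGCAAA, the motif's base is given first, and capitals again mark the 9 aligned bases. *PRE5* (chrXIII:901552-901580), *PUP1* (chrXV:631891-631919) and *RPN8* (chrXV:817085-817113) have the substitution G1A, and *RPN10* (chrVIII:498968-498996) and *RPN13* (chrXII:965656-965684) have A7G.
PRE5: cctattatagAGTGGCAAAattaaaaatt
PUP1: aacccggccgAGTGGCAAAataccaaaaa
RPN8: gggatacctcAGTGGCAAAtcgttactca
RPN10: tgtaaattccGGTGGCGAAaacccgcctg
RPN13: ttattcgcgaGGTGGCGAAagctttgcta
With 1 mismatch allowed, all 32 subunits had a match, against 464 of the 6002 windows (7.73%). With the looser pattern NGTGGCAAN, which fixes the 7 central letters, 31 of 32 subunits had one, against 294 windows (4.90%). *RPN4* itself has no PACE. Its closest 9 bases, in the stretch at chrIV:416838-416866, differ from the motif at 3 positions (G1C, C6A and A8T).
RPN4: ttcttcttggCGTGGAATAtttaaggagt
A match of letters is a description of the sequence and does not show that Rpn4 is bound there.

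The motifs sat at similar distances from the start codon. Over the 27 exact matches the distance ran from 76 bases, in *RPT6*, to 175 bases, in *PUP3*, with a median of 112. The middle 50% lay between 101 and 141.5 bases. The gene's own strand carried the motif in 19 subunits and the opposite strand in 8. Widening the window to 500 bases, a choice made after the data were seen, found the motif in 99 of 6002 windows (1.65%) and added no subunit.

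**Figure D1:**
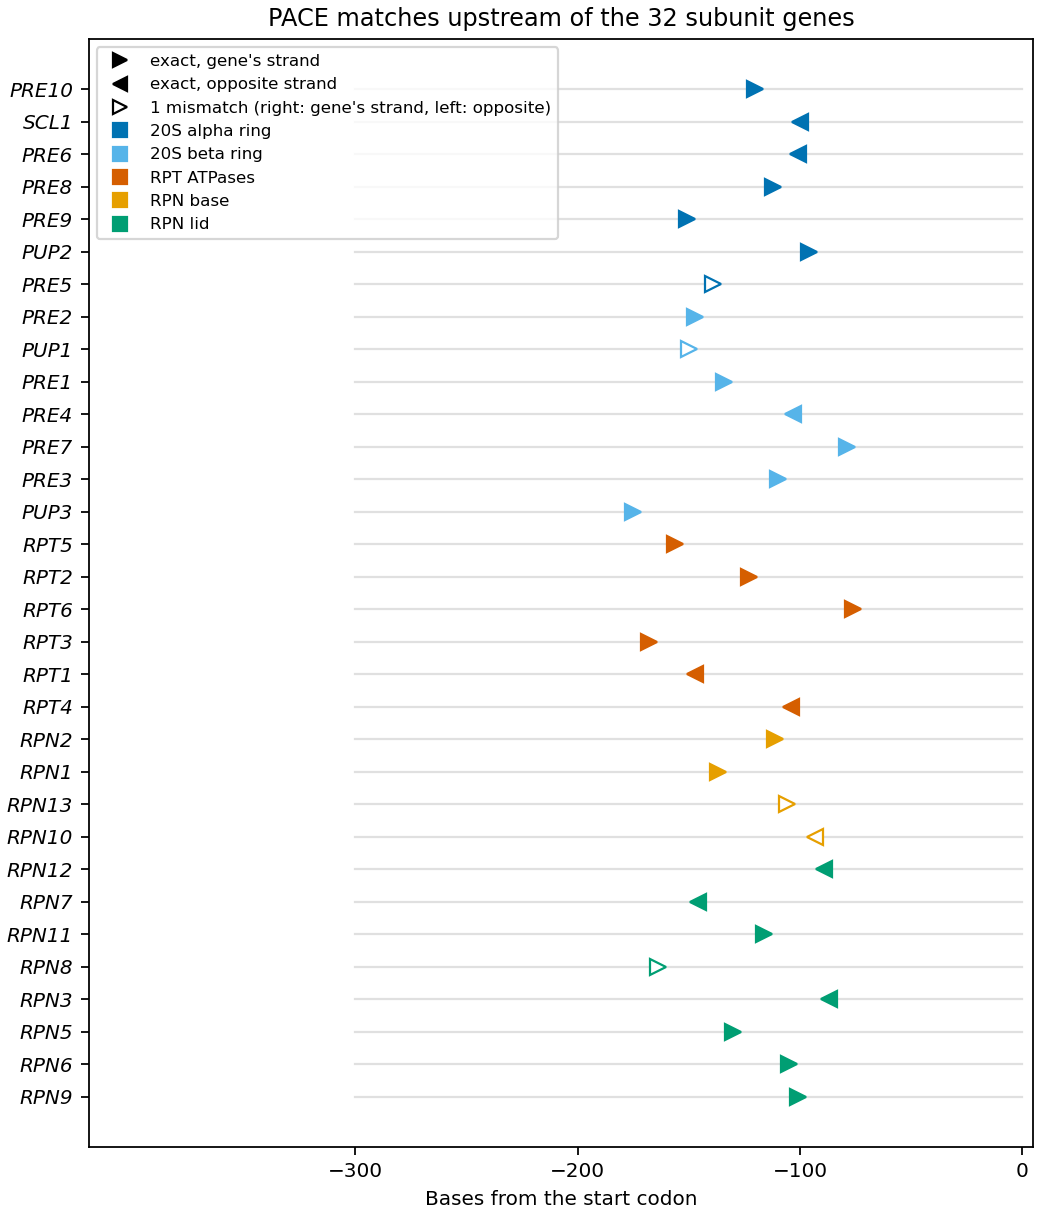
Position of the PACE match before each of the 32 subunit genes, in bases from the start codon (x axis). Filled triangles are exact matches to GGTGGCAAA and open triangles the closest match with 1 mismatch, and the triangle points right on the gene's strand and left on the opposite strand. The 27 exact matches lie between 76 and 175 bases from the start codon, and 5 genes (*PRE5*, *PUP1*, *RPN13*, *RPN10* and *RPN8*) have an open triangle.

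The mRNAs of all 32 subunits were higher in the auxin-treated cultures, by a narrow range of amounts. The mRNA of their regulator did not pass the test and had a direction that depended on the scaling. Levels are counts per 1000000 (CPM) after TMM scaling, and changes are log2 fold changes of auxin over mock from edgeR's quasi-likelihood test, called at a Benjamini-Hochberg adjusted p of at most 0.05. The median log2 fold change of the subunits was 0.41 (1.33-fold), from 0.19 in *PRE5* to 0.51 in *PRE2* (1.14-fold to 1.42-fold). Their adjusted p lay between 4.2e-08 and 0.00036, and 0 of the 32 fell. Of all tested features, 38.5% rose and 38.5% fell by the same test, which together makes 77.0%. A call is therefore common in these data, and the share of subunits that rose, 32 of 32, is to be read against the 38.5%. The median over all tested features was 0.00, the middle 50% ran from −0.24 to 0.32, and 78.8% of the features had a log2 fold change below the subunits' median. In every subunit all 3 auxin-treated cultures lay above all 3 mock-treated ones, which was the case for 39.3% of the tested features.

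None of the subunits changed by as much as a log2 fold change of 1, the size that the study asked for in addition to the adjusted p. Of all tested features, 10.3% changed by that much and 7.72% rose by it. The subunits thus moved by less than these features, and by amounts close to one another. The SD of the log2 fold changes was 0.07 over the 32 subunits and 0.66 over all tested features. The latter include features with few counts and large standard errors, whereas every subunit had at least 2915 counts in each culture. No set of genes with similar counts was compared. RNA was taken from whole cultures, so a change in every cell and a larger change in some of the cells cannot be told apart. The values are relative to the other RNAs of a culture, and the amount of RNA per cell was not measured.

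**Figure D2:**
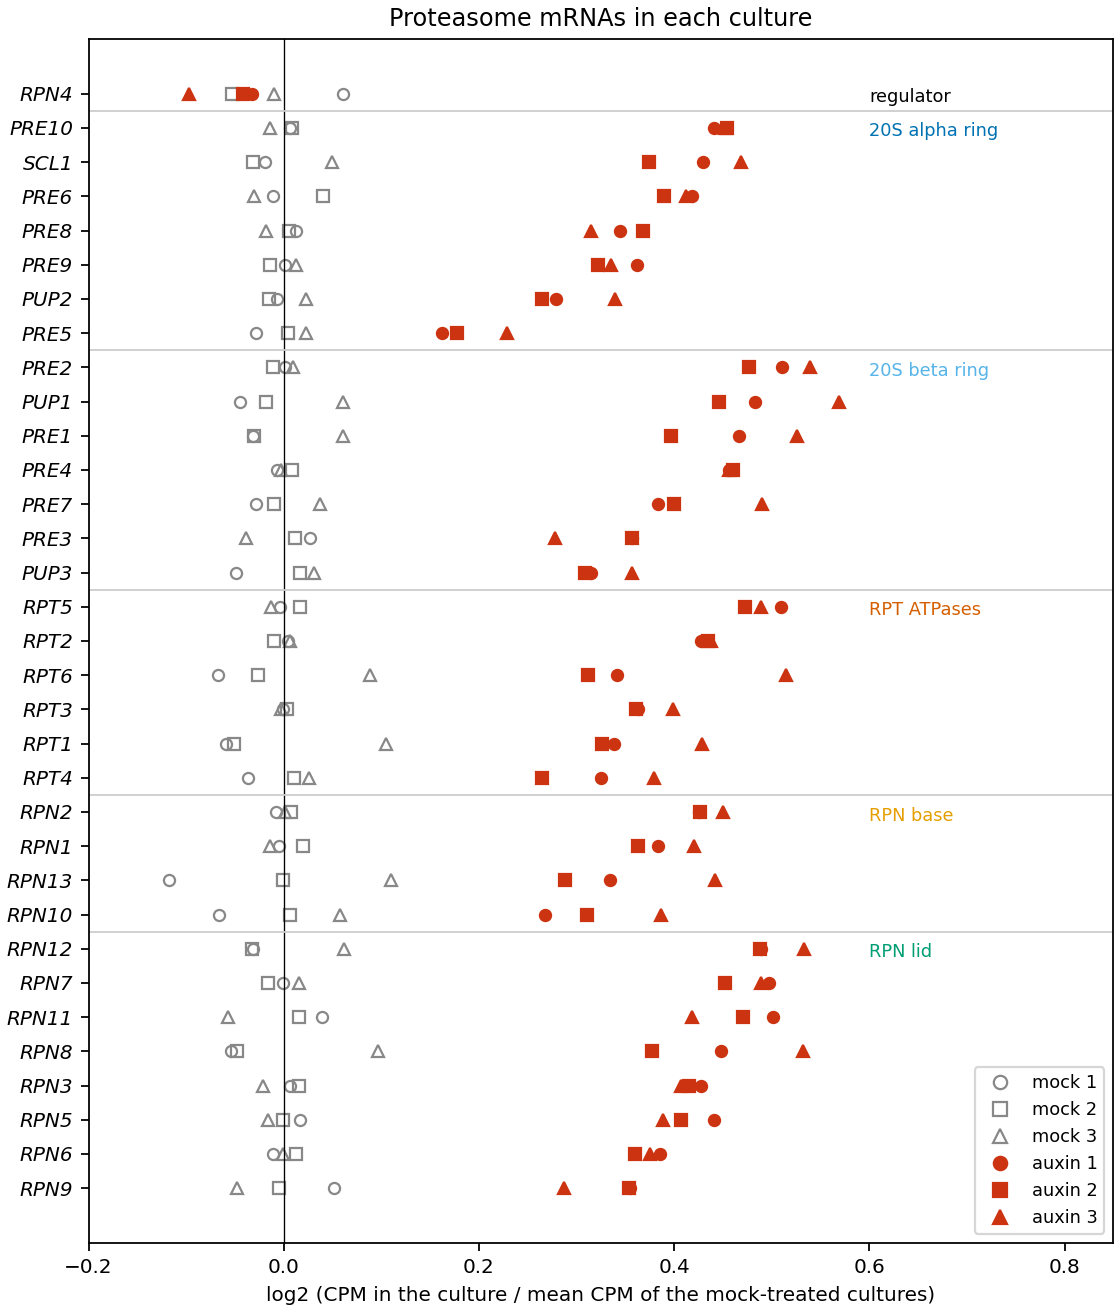
Level of each proteasome mRNA in each of the 6 cultures, as the log2 ratio of its CPM to the mean CPM of the 3 mock-treated cultures (x axis). Open grey symbols are mock-treated and filled red symbols auxin-treated cultures, with 1 shape per culture number, and genes are grouped by their place in the proteasome. The groups of symbols stand apart in each of the 32 subunits and overlap in *RPN4*.

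*RPN4* (YDL020C, chromosome IV, 415113 to 416708) had 121, 112 and 115 CPM in the mock-treated cultures and 114, 113 and 109 CPM in the auxin-treated ones. The groups overlapped, with the highest and the second lowest value both in mock-treated cultures. Its log2 fold change was −0.06 (SE 0.03, adjusted p = 0.14) with TMM scaling and 0.19 (adjusted p = 0.0012) with scaling by total counts only, so its direction depends on the scaling. Total-count scaling also moved the median of all tested features, to 0.25, and *RPN4* lay below that median under either scaling. Set against the subunits within each culture, where scaling plays no part, *RPN4* had 0.709, 0.663 and 0.673 times the CPM of the median subunit in mock and 0.501, 0.506 and 0.488 times with auxin. The ratio was lower in each auxin-treated culture than in each mock-treated one. This restates the rise of the subunits beside an *RPN4* level that overlapped between the groups, and does not show a fall of *RPN4* itself. No protein was measured, so the level of Rpn4 itself is not known from these data.

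The beta rings hold the proteolytic sites, in Pre3 (caspase-like), Pup1 (trypsin-like) and Pre2 (chymotrypsin-like). *PRE2* (YPR103W) had 150.2, 149 and 151 CPM in mock and 214, 209 and 218 CPM with auxin, the largest log2 fold change of the 32 subunits (0.51, SE 0.02, adjusted p = 5.2e-08). *PUP1* (YOR157C) had 113, 115 and 121 CPM against 163, 159 and 173 CPM, a log2 fold change of 0.50 (SE 0.04, adjusted p = 1.5e-06). *PRE3* (YJL001W) rose less, from 191, 189 and 182 CPM to 239.6, 239 and 227 CPM (0.33, SE 0.03, adjusted p = 5.0e-06). The transcripts of the catalytic subunits thus rose, like those of all other subunits. The changes of *PRE2* and *PUP1* were close to each other and above that of *PRE3*. *PRE3* is also the subunit gene nearest to a centromere, 381 bases from *CEN10*, whereas the next, *RPN11*, lies 4766 bases from *CEN6*. Whether this position has a part in the change of *PRE3* was not tested.

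The other 4 beta subunits have no active site. *PRE4* (YFR050C) had 226, 228 and 226 CPM in the mock-treated cultures and 311, 312 and 311 CPM in the auxin-treated ones (0.46, SE 0.02), and its adjusted p of 4.2e-08 was the lowest of the 32 subunits. Its cultures hardly varied within a group, and the gap between the groups was wide against that spread. *PRE1* (YER012W) had a log2 fold change of 0.46, *PRE7* (YBL041W) of 0.43 and *PUP3* (YER094C) of 0.33. The median over the 7 beta subunits was 0.46.

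The alpha rings close the ends of the barrel. *PRE10* (YOR362C) had the largest change among them, from 238, 238 and 234 CPM to 321, 324 and 324 CPM (0.45, SE 0.02, adjusted p = 5.3e-08). *PRE5* (YMR314W) had the smallest of all 32 subunits, from 111, 113 and 115 CPM to 127, 128 and 132 CPM (0.19, SE 0.03, adjusted p = 1.1e-04). Even in *PRE5* the groups did not overlap, with a gap of 0.14 on the log2 scale between the highest mock-treated and the lowest auxin-treated culture, against 0.47 in *PRE2*. *PRE9* (YGR135W), which encodes the only subunit of the core that yeast can live without, had a log2 fold change of 0.34 (SE 0.02). *SCL1* (YGL011C, 0.42) and *PRE6* (YOL038W, 0.41) lay near *PRE10*, and *PRE8* (YML092C, 0.34) and *PUP2* (YGR253C, 0.29) between these and *PRE5*. The median over the 7 alpha subunits was 0.34, lower than that of the beta subunits, with ranges that overlap (0.19 to 0.45 and 0.33 to 0.51).

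Within a culture, the ratio of *PRE2* to *PRE5* shows the unequal change directly. It was 1.35, 1.31 and 1.32 in the mock-treated cultures and 1.69, 1.63 and 1.65 in the auxin-treated ones. The pair was picked as the largest and the smallest change, so the difference is given as a description without a test.

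The 6 RPT ATPases form the ring that unfolds substrates. *RPT5* (YOR117W) changed most among them, from 204, 207 and 203 CPM to 292, 284 and 288 CPM (0.49, SE 0.02, adjusted p = 4.4e-08). *RPT6* (YGL048C) varied more between replicates, with 130.2, 134 and 145 CPM in mock and 173, 169 and 195 CPM with auxin (0.39, SE 0.06, adjusted p = 1.4e-04). The third culture was the highest of its group in both treatments, and the groups still did not overlap. *RPT2* (YDL007W), whose product opens the gate of the core, had a log2 fold change of 0.43, *RPT3* (YDR394W) of 0.37, *RPT1* (YKL145W) of 0.37 and *RPT4* (YOR259C) of 0.32. The median of the 6 was 0.38.

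The base also holds the large scaffold subunits Rpn1 and Rpn2 and the ubiquitin receptors Rpn10 and Rpn13. *RPN2* (YIL075C) had the most counts of the 32 subunits, 638, 645 and 642 CPM in mock and 862, 863 and 877 CPM with auxin (0.43, SE 0.02, adjusted p = 9.7e-08). *RPN1* (YHR027C), the docking site for proteins that shuttle substrates to the proteasome, had a log2 fold change of 0.39 (SE 0.02). The receptor *RPN13* (YLR421C) had the fewest counts, 27.03, 29.3 and 31.7 CPM and 36.97, 35.8 and 39.8 CPM (0.36, SE 0.06, adjusted p = 3.6e-04). Its lowest culture still had 2915 counts, and its SE was the widest of the 32. *RPN10* (YHR200W) rose by a log2 fold change of 0.32, and the 4 base subunits had a median of 0.37.

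The lid removes ubiquitin from substrates through the metalloprotease Rpn11. *RPN11* (YFR004W) had 152, 149 and 142 CPM in mock and 209, 205 and 197 CPM with auxin (0.46, SE 0.03, adjusted p = 7.7e-07), and *RPN8* (YOR261C), which encodes its inactive partner, had 106, 106 and 118 CPM and 150.0, 143 and 159 CPM (0.45, SE 0.05). The transcripts of the pair thus rose by nearly the same factor. *RPN12* (YFR052W), the last subunit to join the lid, had 123, 123 and 131 CPM and 177, 176 and 182 CPM, the largest change of the lid (0.50, SE 0.03, adjusted p = 3.1e-07). The other subunits of the lid's horseshoe-shaped scaffold were *RPN7* (YPR108W, 0.48), *RPN3* (YER021W, 0.42), *RPN5* (YDL147W, 0.41), *RPN6* (YDL097C, 0.37) and *RPN9* (YDR427W, 0.33), each value being a log2 fold change. The median over the 8 lid subunits was 0.44. Taken by particle, the 14 core subunits had a median of 0.42 and the 18 subunits of the regulatory particle one of 0.40.

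**Figure D3:**
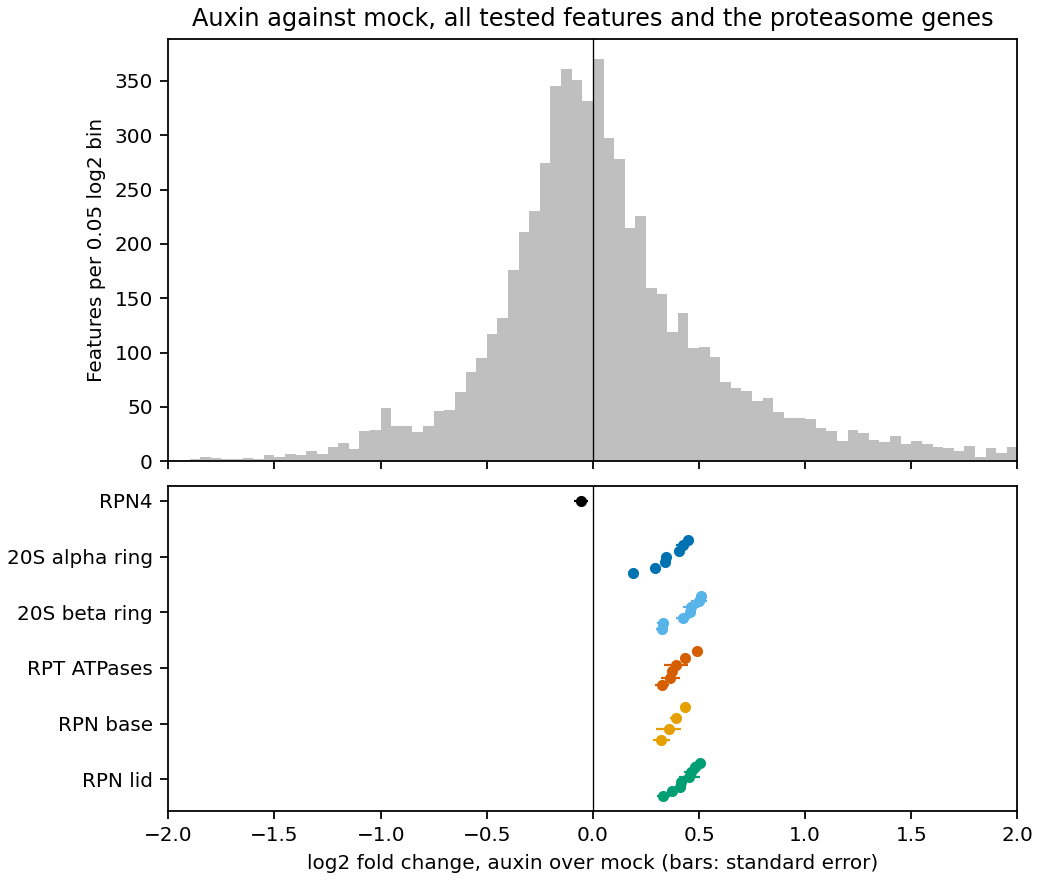
Upper panel, number of tested features per bin of 0.05 in log2 fold change of auxin over mock, cut off at a change of 4-fold on either side. Lower panel, log2 fold change of *RPN4* and of each subunit, grouped by place in the proteasome, with bars for the standard error. The 32 subunits lie between 0.19 and 0.51, right of the peak of the distribution, and *RPN4* lies at −0.06 with the TMM scaling drawn here and would lie at 0.19 with scaling by total counts.

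Levels of different subunits can be compared only per length, as CPM per kb of coding sequence. On this scale the mock-treated subunits ran from 62.3 (*RPN13*) to 316 (*PUP3*), a 5.07-fold range, or 3.47-fold without *RPN13*. The median was 174 in mock and 228 with auxin. The core subunits had a median of 204 and the subunits of the regulatory particle one of 159 in mock, and 266 and 217 with auxin. The ATPases were the lowest of the subcomplexes, with a median of 128 in mock and 171 with auxin, and the alpha subunits the highest in both (211 and 267). *RPN4* had 72.8 CPM per kb in mock and 69.95 with auxin, below every subunit but *RPN13* in mock.

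The order of the subunits was nearly the same in both treatments. Over the 32 subunits the mock and auxin levels, on a log2 scale of CPM per kb, had a Pearson's r of 0.990 and a Spearman's rho of 0.971, which describes 32 genes measured in the same 6 cultures. The log2 fold change showed little relation across the 32 genes to the mock level (r = −0.003, rho = −0.11) or to the coding length (r = 0.15, rho = 0.19). The mean level of the core subunits over that of the regulatory particle subunits, per kb, was 1.43, 1.43 and 1.42 in mock and 1.41 in each culture with auxin. The spread of the levels, as the SD of log2 CPM per kb over the subunits, ran from 0.488 to 0.534 in mock and from 0.495 to 0.537 with auxin, ranges that overlap.

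**Figure D4:**
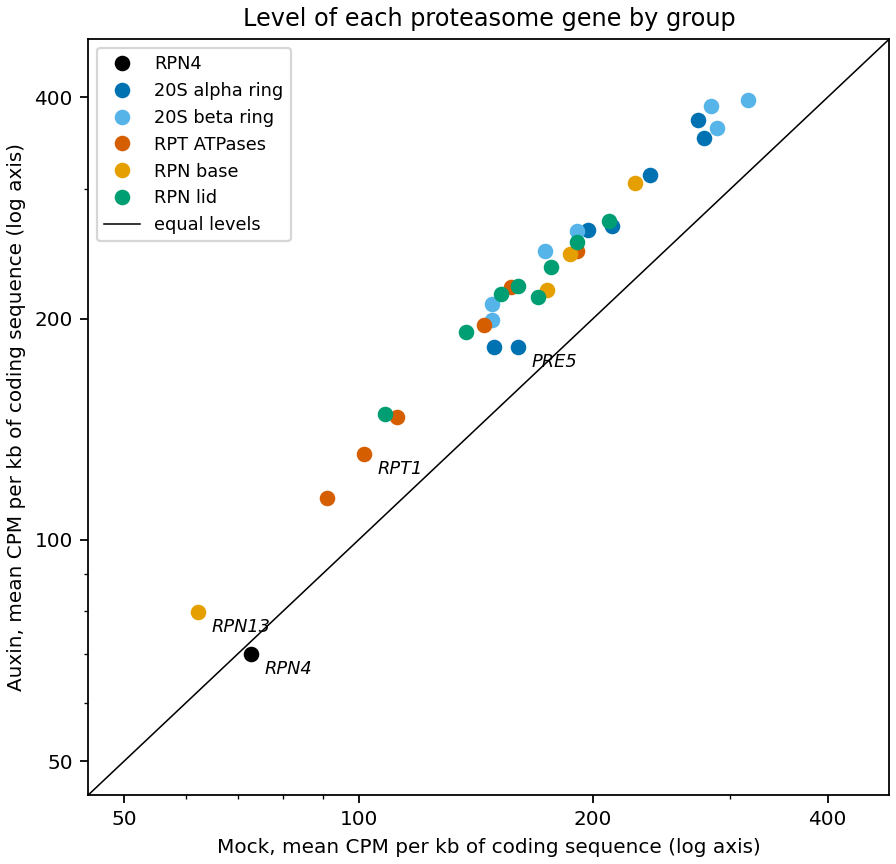
Mean CPM per kb of coding sequence of each proteasome gene in the 3 mock-treated (x axis) and the 3 auxin-treated cultures (y axis), both on log axes, coloured by place in the proteasome. The line marks equal levels. All 32 subunits lie above the line and *RPN4*, whose direction depends on the scaling, just below it in this TMM scaling, and *RPN13* is the lowest of the subunits.

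Summed over the 32 subunits, the level was 6210, 6253 and 6281 CPM in mock and 8263, 8178 and 8366 CPM with auxin. As a share of the raw counts, without scaling, the subunits took up 0.576, 0.564 and 0.580% in mock and 0.903, 0.888 and 0.912% with auxin. The groups did not overlap on either measure. Total-count scaling gave a larger median log2 fold change for the subunits, 0.66 against 0.41, and it raised the median of all tested features by 0.25. Relative to all tested features the subunits were thus higher by 0.41 under either scaling.

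Replicates differed little. The coefficient of variation between replicates had a median of 2.01% over the subunits in mock (0.233% to 7.88%) and of 2.07% with auxin (0.190% to 7.76%). The highest values belonged to *RPN13* in mock and to *RPT6* with auxin. The third culture was the highest of its group for 18 of the 32 subunits in mock and for 19 with auxin, and for 16 in both, among them *RPT6*, *RPN13* and *RPN8*. The median deviation of the subunits from their group's mean was small in each culture, between −0.02 and 0.03 on the log2 scale.

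Subunits with and without an exact PACE both rose. The 27 with GGTGGCAAA had a median log2 fold change of 0.41, from 0.29 (*PUP2*) to 0.51 (*PRE2*). The 5 without it had a median of 0.36, from 0.19 (*PRE5*) to 0.50 (*PUP1*). *PRE5*, *PUP1* and *RPN8* share the same 9 bases (AGTGGCAAA) and had log2 fold changes of 0.19, 0.50 and 0.45, so the smallest change of the 32 and one of the largest came with the same 9 letters. *RPN10* and *RPN13*, with GGTGGCGAA, had 0.32 and 0.36.

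The upstream windows of 8 subunits are shared with a gene that is transcribed away from them, so that the same PACE lies within 300 bases of both start codons. Of these 8 neighbours, 5 rose, 1 fell and 2 did not pass the test, while all 8 subunits rose and 38.5% of all tested features went each way. With scaling by total counts, under which 64.6% of all tested features were higher, 7 of the neighbours were higher and 1 was lower. The *RPN6* and *PMT1* start codons are 363 bases apart, and the motif printed above for *RPN6* lies 105 bases from the former and 251 from the latter. *PMT1* (YDL095W), which encodes a protein O-mannosyltransferase, had 623, 642 and 642 CPM in mock and 396, 409 and 407 CPM with auxin, a log2 fold change of −0.65 (SE 0.03, adjusted p = 1.4e-08), and −0.41 with scaling by total counts. It thus fell where *RPN6* rose by 0.37. *YTH1*, an mRNA 3′ end processing factor that shares the window of *RPN7*, had a log2 fold change of 0.00 (adjusted p = 0.92), which came to 0.25 (adjusted p = 0.00025) with scaling by total counts. *ALG13*, next to *RPT6*, had −0.02 (adjusted p = 0.83), which turned to 0.23 (adjusted p = 0.014).

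The neighbours that rose were *NOP14* beside *RPN5* (0.67), *GCD1* beside *RPT4* (0.60), *MPO1* beside *SCL1* (0.47), *YPI1* beside *RPN11* (0.21) and YOL038C-A beside *PRE6* (0.76, SE 0.13). YOL038C-A was barely expressed, with 0.58, 0.55 and 0.58 CPM in mock and 0.96, 1.06 and 0.88 CPM with auxin. Nop14 acts in the assembly of the small ribosomal subunit, Gcd1 is part of the translation factor eIF2B, and Ypi1 regulates a protein phosphatase. The neighbour's log2 fold change was larger than the subunit's beside *RPN5*, *RPT4* and *PRE6*, close to it beside *SCL1* and smaller beside *RPN11*.

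Beside the subunits, 36 further genes of the pathway were followed: the small lid subunit *SEM1*, assembly chaperones, proteins that bind the proteasome, genes of ubiquitin and substrate delivery, and genes that regulate *RPN4* or the Rpn4 protein. Of these, 20 rose, 6 fell and 10 did not pass the test, with a median log2 fold change of 0.15, against 38.5% rising and 38.5% falling among all tested features. Unlike the subunits, the pathway genes thus moved in both directions. *SEM1* (YDR363W-A) had 25.1, 24.1 and 26.5 CPM in mock and 35.3, 32.6 and 35.3 CPM with auxin (0.45, SE 0.05, adjusted p = 1.2e-05), within the range of the other lid subunits.

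Of the 10 assembly chaperones, 2 rose, 3 fell and 5 did not pass, so no more of them were called in either direction than the 38.5% of all tested features would give. *PBA1* (YLR199C), a chaperone of the alpha ring, had 76.7, 72.4 and 73.9 CPM and 106, 105 and 101 CPM (0.49, SE 0.03, adjusted p = 2.8e-07). *UMP1* (YBR173C), which is enclosed in the maturing core and becomes its first substrate, had 120.3, 113 and 115 CPM and 153, 155 and 147 CPM (0.39, SE 0.03, adjusted p = 2.6e-06). These were the chaperones that rose, with changes inside the range of the subunits.

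*TMA17* (YDL110C), a chaperone of the ATPase ring that is known to be induced by stress, had 45.7, 43.3 and 42.2 CPM in mock and 28.4, 28.1 and 29.2 CPM with auxin, and fell (−0.62, SE 0.04, adjusted p = 2.4e-07). The others that fell, named after their values were seen, were *POC4* (−0.53) and *IRC25* (−0.43), whose products form a dimer that helps to build the alpha ring. Each of these 3 was lower under each scaling tried, and of all tested features 38.5% fell with TMM scaling.

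Among the proteins bound to the proteasome, *ECM29* (YHL030W), which holds core and regulatory particle together, had 338, 328 and 317 CPM and 668, 671 and 681 CPM (1.04, SE 0.03, adjusted p = 2.5e-09). *BLM10* (YFL007W), an alternative cap of the core, had 436, 435 and 428 CPM and 839.7, 860.0 and 837 CPM (0.97, SE 0.02). Both changed about as much as 2-fold, more than any subunit. *UBP6*, the deubiquitinase of the base, had a log2 fold change of 0.44, *HUL5* of 0.15 (adjusted p = 0.0031) and *FUB1* of 0.02 (adjusted p = 0.78). Of these, *BLM10*, *UBP6* and *HUL5* were named with their values known.

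Of the 14 genes of ubiquitin and substrate delivery, 8 rose, 2 fell and 4 did not pass, beside 38.5% of all tested features in each direction. The polyubiquitin gene *UBI4* (YLL039C) had 104, 100.1 and 112 CPM in mock and 204, 198 and 227 CPM with auxin (0.99, SE 0.06, adjusted p = 1.7e-07). Its repeats resemble the other ubiquitin genes, so reads may be exchanged among them. The lowest change was that of the ubiquitin chain elongation factor *UFD2* (YDL190C, −0.28, adjusted p = 4.6e-06), which came to −0.03 (adjusted p = 0.32) with scaling by total counts. The shuttle factors that carry substrates to the proteasome, named after their values were seen, all rose: *RAD23* by 0.39, *DSK2* by 0.41 and *DDI1* by 0.37 in log2 fold change.

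The Rpn4 protein is marked for degradation by the ubiquitin ligase Ubr2 with its partner Mub1. *UBR2* (YLR024C) had 106, 105 and 109 CPM in mock and 222, 229 and 232 CPM with auxin, the largest change of the pathway genes (1.09, SE 0.03, adjusted p = 1.5e-09). *MUB1* (YMR100W) had 82.3, 79.6 and 79.6 CPM and 86.9, 88.6 and 86.98 CPM (0.12, SE 0.02, adjusted p = 0.0014). The partners thus rose by very different factors. *ECM29* and *UBR2* were the 2 of the 36 that changed by a log2 fold change of at least 1, against 10.3% of all tested features.

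Transcription of *RPN4* is known to be activated by Yap1, Pdr1, Pdr3 and Hsf1, which respond to oxidants, drugs and heat. *YAP1* (YML007W) had 225, 220.2 and 216 CPM in mock and 329, 323 and 311 CPM with auxin (0.54, SE 0.03, adjusted p = 1.1e-07). *PDR1* (YGL013C) had a log2 fold change of 0.27 (adjusted p = 2.1e-06), *HSF1* (YGL073W) of 0.16 (adjusted p = 2.1e-04) and *PDR3* (YBL005W) of −0.08 (adjusted p = 0.038), which turned to 0.17 (adjusted p = 0.00097) with scaling by total counts. The mRNAs of 3 of these 4 factors thus rose, beside 38.5% of all tested features that rose with TMM scaling. The lower and upper quartiles of all tested features were −0.24 and 0.32. The changes of *PDR1* and *HSF1* lay between these quartiles, and only that of *YAP1* lay above them. The mRNA of Pdr3 had no direction that held across scalings. The same holds for *RPN4*, which did not pass the test with TMM scaling and was higher with scaling by total counts. In the 500 bases before *RPN4*, searched on both strands, the letters TTACTAA, the Yap1 site, occur once, 368 bases from the start codon, against 11.8% of all 500-base windows with a match. The letters GAANNTTC, the core of a heat shock element, occur at 336 and at 9 bases (19.2% of windows have a match). The exact letters TCCGCGGA, a form of the pleiotropic drug response element, are not found (0.65% of windows). Variants of these sites were not searched, so it is not shown that *RPN4* lacks a drug response element.

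**Figure D5:**
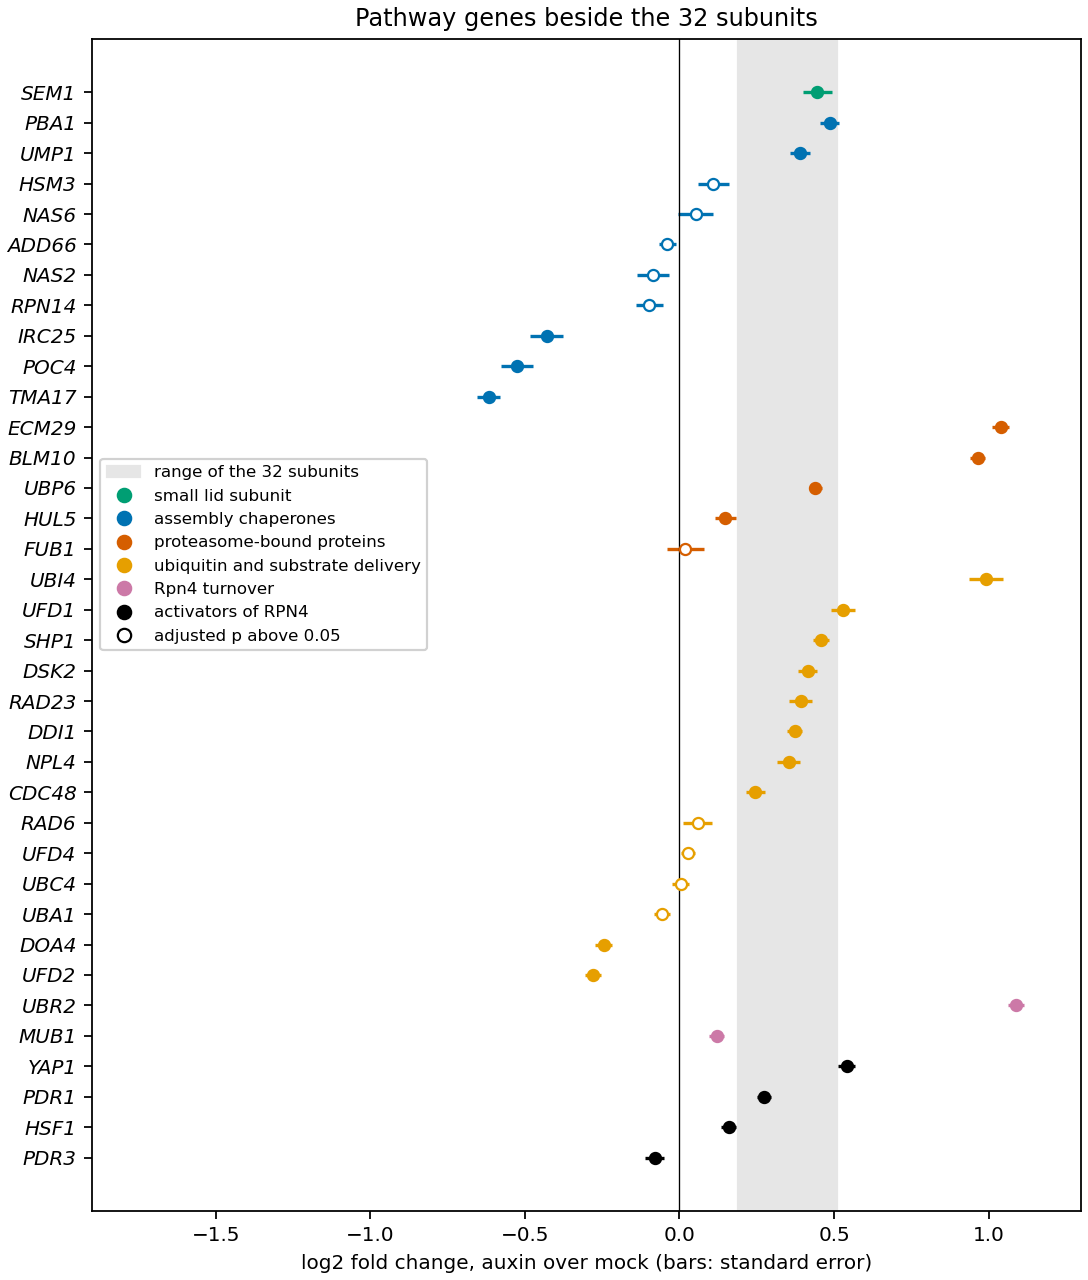
Log2 fold change of auxin over mock, with bars for the standard error, of the 36 pathway genes beside the 32 subunits, coloured by role. Open symbols have an adjusted p above 0.05, and the grey band is the range of the 32 subunits (0.19 to 0.51). *UBR2*, *ECM29*, *UBI4* and *BLM10* lie far to the right of the band and *TMA17*, *POC4* and *IRC25* to the left of 0.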

How the data were processed

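Directional paired-end libraries were made from rRNA-depleted RNA. The authors filtered the reads with Trimmomatic, aligned them with STAR to sacCer3 (R64) and deposited raw STAR counts for each gene, without normalization. For reads with several matches 1 alignment was kept, and the annotation release is not given in the sources used here. Total counts per culture lay between 110119744 and 125303818. Columns were assigned to cultures by name, with a trailing letter a taken to mean auxin, which no label spells out. A protocol label names auxin for every culture, and the treatment label was used to form the groups of 3. The labels call the cultures biological repeats but do not say how they were started. The p-values therefore set the difference between the groups against the variation between these cultures only.

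From the deposited counts, auxin was compared with mock in R 4.3.3 with edgeR 4.0.16 (filterByExpr, TMM, glmQLFit, glmQLFTest, condition as the only term, Benjamini-Hochberg over 6397 features). The script was tested on simulated data. The alternatives tried were DESeq2 1.42.0, glmTreat, scaling by RLE, by upper quartiles or by total counts, other low-count filters, the replicate number as a block, leaving out each culture, and looser motifs. Motifs were searched in R64 with Python 3.11.15. The genes and lists were chosen with earlier results of these data known. Values are given for all 33 genes and, of the pathway list, for genes changed at a log2 fold change of at least 1, the highest and lowest of each role, and *SEM1*, *UMP1*, *UBI4*, *UBR2*, *MUB1*, *HSF1*, *PDR1*, *PDR3* and *YAP1*. Any other gene is said to have been picked with its value known.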

Additional observations from a re-analysis of the deposited data

How the results depend on the processing

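All 32 subunits passed the test and were higher under DESeq2, the RLE, upper-quartile and total-count scalings, both other count filters, the replicate block and without each culture in turn. Under glmTreat against a log2 fold change of 1, which asks for a larger change than the subunits showed, 0 of the 33 genes and 1 of the 36 pathway genes were higher and 0 pathway genes were lower. Scaling by total counts alone turned the log2 fold change of *RPN4* to 0.19 (adjusted p = 0.0012), raised the median of the subunits to 0.66 and gave 31 higher and 3 lower pathway genes. It also made 64.6% of all tested features higher, against 38.5% with TMM. Of all calls, 79.4% were then higher (4131 higher, 1072 lower), against 50.0% with TMM (2462 and 2465). Leaving out each culture in turn gave 32 higher and 0 lower of the 33 genes throughout, a log2 fold change of *RPN4* from −0.09 to −0.03, a subunit median of 0.40 to 0.41, and 20 to 21 higher and 5 to 7 lower pathway genes. The deviations of same-numbered cultures from their group means had r = 0.16 for number 1, −0.03 for number 2 and 0.25 for number 3. Between differently numbered cultures r ran from −0.26 to 0.13, so numbers 1 and 3 lay above that range and number 2 within it. Whether the numbers mark pairs is not settled by these values. No label ties the numbers to a batch or day, so they were not taken as pairs in the main fit. With the replicate block, 32 genes were higher, *RPN4* was at −0.06 (adjusted p = 0.068), and 22 pathway genes were higher and 9 lower. The shares of all tested features called with the block or without each culture are not given here, so these counts have no background beside them.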

Other observations

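Besides the 27 subunit genes, 46 nuclear protein-coding genes had GGTGGCAAA within 300 bases before their start codon, and 45 of them were tested. Of these, 31 rose, 4 fell and 10 did not pass edgeR's test, with a median log2 fold change of 0.33 and a range from −0.65 to 1.47. Of all 5810 protein-coding genes tested, 35.5% rose, with a median of −0.03. The 5 that belong to the pathway list are *CDC48*, *ECM29*, *UBA1*, *UBI4* and *YAP1*, and without these the other 40 had a median of 0.32, with 27 higher, 4 lower and 9 not passing. The genes named next were chosen after their values were seen. *NAB2*, which encodes a poly(A) RNA binding protein, had the largest change (1.47), and *CUZ1* (0.90) and *TMC1* (0.71), which encode zinc finger proteins that bind Cdc48 or the proteasome, rose too. *SGT2*, a chaperone adaptor for tail-anchored proteins, rose by 0.43, the mitochondrial protease gene *PIM1* by 0.42 and the chaperonin subunit gene *CCT6* by 0.32 in log2 fold change. *PMT1* (−0.65) and *HUA1* (−0.50) were the lowest. Some of these windows are shared with a subunit gene, as described above, and whether the motif has a part in these changes was not tested.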
